A study of Mus musculus with 6 samples.

Results

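Lipocalins are small secreted barrel-shaped proteins that carry hydrophobic molecules such as odorants, pheromones, steroids and retinoids. Odorant-binding proteins are lipocalins of the nasal mucus, and major urinary proteins (Mup) are pheromone carriers made in mouse liver and in several glands. In the thymus, mature medullary epithelial cells transcribe many genes that otherwise belong to single peripheral tissues, so that developing T cells meet their products, and the nuclear regulator Aire drives a large share of this transcription. The genes described here are 10 such carriers, namely Lcn3, Lcn4, Lcn11, Obp1a, Obp1b, Obp2a, Mup4, Mup5, Mup6 and Mup20. They were chosen by symbol from a table of 15643 genes, in which all 10 were found.

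The counts came from mTEChi, the mature medullary epithelium of the thymus, sorted from 4.5-week-old NOD mice, a strain prone to autoimmune diabetes. There were 3 libraries labelled Aire +/+, numbered 745, 750 and 753, and 3 labelled Aire -/-, numbered 746, 748 and 749. The libraries were made by MARS-seq, which captures 3′ ends of polyadenylated RNA and tags each molecule with a unique molecular identifier (UMI), and the design text names a comparison by Aire genotype in young mice. The labels name no other allele or treatment, and do not say which part of Aire is missing, how many animals or cells went into a library, or whether the libraries came from separate animals. The p-values therefore measure the spread between these libraries, which may be technical.

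Library totals were 2736932 to 2887321 UMIs in Aire +/+ and 1014581 to 1960802 UMIs in Aire -/-. Levels are CPM, counts put on a common library total, adjusted by edgeR's TMM factors, and a gene was called at an edgeR adjusted p of 0.05. Of 11956 genes tested, 1450 were lower and 1027 higher in Aire -/-, which is 58.5% of the calls lower, against 78.3% when only library totals were used for scaling. The sorted cell type was checked by its markers. All 11 markers of mature medullary epithelium were detected. Their summed level was 39667 to 47286 CPM in Aire +/+ and 69648 to 79280 CPM in Aire -/-. All 11 were tested, and 6 were called higher and 0 lower (8.59% and 12.1% of all tested genes). Of markers of other cell types, the sums did not overlap for cortical epithelial markers (4 of 4 in the table) at 135 to 260 against 405 to 503 CPM and fibroblast markers (4 of 5) at 44.6 to 83.0 against 129 to 598 CPM. Leukocyte markers (11 of 11) did not overlap either, at 1277 to 1346 against 1451 to 2371 CPM, with the top value in library 749. Of these 11 genes 1 was called lower, 0 higher and 10 were not called. Most of the sum was Lyz2, at 1106 ± 51.7 against 1581 ± 468 CPM (edgeR adjusted p = 0.0631). Lyz2 passed as higher with a count minimum of 3 (edgeR adjusted p = 0.0466) and with DESeq2's Wald test (adjusted p = 0.0325). Endothelial markers (3 of 3) overlapped, at 19.8 to 23.3 against 12.4 to 28.7 CPM. Called higher were 3 of 3 tested cortical, 2 of 3 tested fibroblast and 0 of 2 tested endothelial markers, and 0 of these were lower. The part of these cell types in the results was not tested. Aire itself was counted at 2250 ± 192 CPM in Aire +/+ and 4827 ± 333 CPM in Aire -/- (SD, n = 3 each), and a 3′ tag may lie outside the deleted part, so these counts do not check the labels. Libraries 753 and 746 stood apart, with 90 and 28 UMIs of Gapdh against 2245 to 4166 in the other 4.

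The family is recognised by a short stretch near the amino end, glycine, any residue, tryptophan, which closes the base of the barrel. In coding sequence it reads GGNNNNTGG in frame, and this was found within the first 60 codons of all 10 genes, as in 6.6% of 21794 coding genes of the GENCODE annotation. The 45 bases around it are shown for 8 of the genes to show how far apart the lipocalins and odorant-binding proteins are, and how alike the Mup genes are. Capitals mark the motif, and the sequences come from GENCODE transcripts of mm10.
Obp2a: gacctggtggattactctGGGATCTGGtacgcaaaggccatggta
Lcn3: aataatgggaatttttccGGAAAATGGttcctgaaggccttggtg
Lcn11: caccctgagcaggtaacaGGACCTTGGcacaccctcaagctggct
Obp1a: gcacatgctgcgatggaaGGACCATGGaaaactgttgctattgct
Obp1b: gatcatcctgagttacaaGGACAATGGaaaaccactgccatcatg
Mup4: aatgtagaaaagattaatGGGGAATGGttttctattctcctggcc
Mup6: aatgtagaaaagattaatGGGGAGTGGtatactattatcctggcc
Mup20: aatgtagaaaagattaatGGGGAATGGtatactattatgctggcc
Coding sequences of the 4 Mup genes were 89.7% to 92.1% identical to each other. Obp1a and Obp1b shared 70.5% of their coding bases, Lcn3 and Lcn4 shared 53.7%, and Obp2a and Lcn3 shared 52.4%. The genes also lie apart. Lcn3, Lcn4, Lcn11 and Obp2a are on chromosome 2, the 4 Mup genes are on chromosome 4, and Obp1a and Obp1b are on the X chromosome, 95.4 kb from each other.

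Across all 10 genes, the Aire +/+ libraries held 1753 UMIs and the Aire -/- libraries held 3. The sum was 586 UMIs in library 745, 480 in 750 and 687 in 753, which is 214, 169 and 238 CPM of the library totals. Each Aire -/- library held 1 UMI, from Lcn3 in library 746, from Mup6 in 748 and from Lcn11 in 749, or 0.986, 0.510 and 0.548 CPM. Of the 10 genes, 10, 9 and 10 were detected in the Aire +/+ libraries and 1 in each Aire -/- library. With every library thinned to 1014581 UMIs, the smallest total, the mean over 20 draws was 8.50, 8.15 and 8.75 genes in Aire +/+ and 1, 0.55 and 0.55 in Aire -/-. In RNA from pooled cells, fewer cells with a transcript and less of it per cell cannot be told apart.

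For 9 of the 10 genes every Aire -/- library lay below every Aire +/+ one (UMIs over the library total), the exception being Mup5, and 33.5% of all genes in the table did so. In all Aire -/- libraries, 7 of the 10 genes had 0 UMIs, against 5.48% of the table. Every gene in the table reaches 6 UMIs in at least 1 library, and these 10 do so only in Aire +/+. Genes this low in Aire -/- could enter the table only through Aire +/+, so both counts are partly set by that selection. The background shares are not matched for count. A filter on low counts left 4 genes to test, Lcn3, Lcn11, Obp2a and Mup6, and all 4 fell in Aire -/-, where 12.1% of tested genes did (8.59% rose). These 4 passed because of their Aire +/+ counts, so the share is not one over all 10. With a looser minimum of 3 counts, 5 of 5 tested members were lower, Mup4 being added (background 14.2%), and with no filter 6 of 10 were, Obp1a being added as well (background 13.7%). DESeq2's Wald test called the same 6 (background 9.79%). The authors' deposited table selects 5, Lcn3, Lcn11, Obp2a, Mup4 and Mup6 (background 7.14%), and gives 6 an adjusted p up to 0.05 (background 9.79%).

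**Figure D1:**
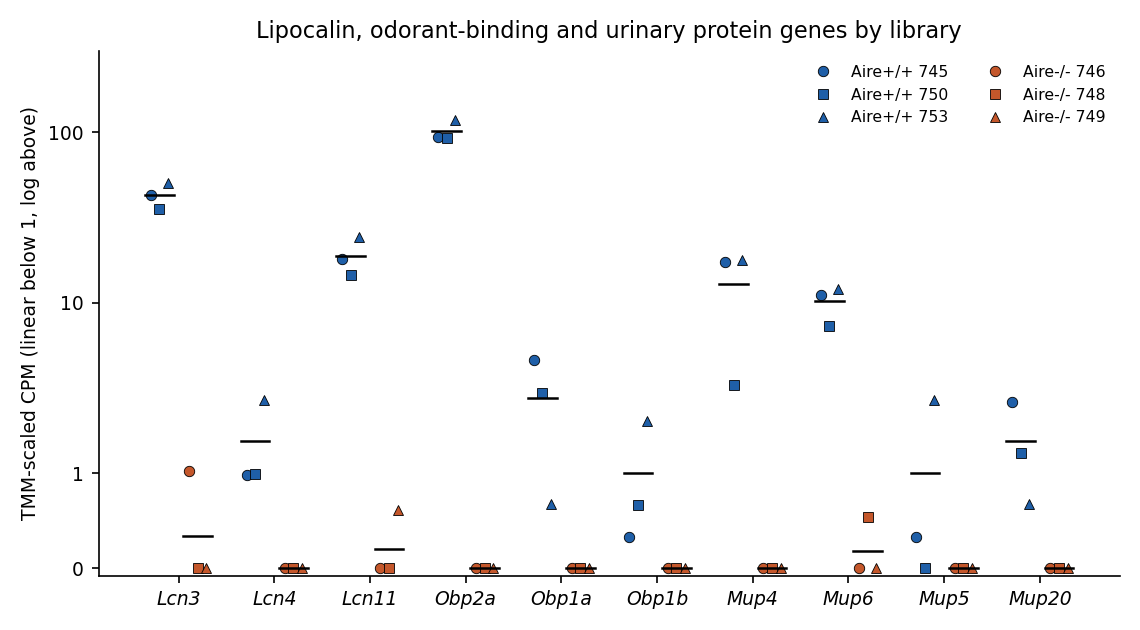
UMI level of each of the 10 genes in CPM (TMM-scaled) for each library, with Aire +/+ and Aire -/- libraries as separate points. Obp2a lies between 92.2 and 118 CPM in Aire +/+ and at 0 in Aire -/-, and the only genes with any UMI in Aire -/- are Lcn3, Lcn11 and Mup6.

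Lcn3, also known as vomeronasal secretory protein 1, is made by glands of the mouse vomeronasal organ and nasal septum, and lies on the plus strand of chromosome 2 (chr2:25765569-25768099, mm10). It had 130, 107 and 149 UMIs in Aire +/+ libraries 745, 750 and 753, and 1, 0 and 0 UMIs in Aire -/- libraries 746, 748 and 749. All 3 Aire +/+ libraries were high and none came near the single Aire -/- UMI. The levels were 42.7 ± 7.33 and 0.342 ± 0.593 CPM (SD, n = 3 each), and Lcn3 fell by 7.25 on the log2 scale (SE 0.53, edgeR adjusted p = 1.59e-06). The ratio of the summed counts was 219 (95% counting interval 39.1 to 8668), whose upper end is set by the single UMI. Without library 746, which held that UMI, the fitted value was -9.74.

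Lcn11, a lipocalin gene next to Lcn3 (chr2:25777017-25780279, plus strand), had 55, 44 and 72 UMIs in Aire +/+ and 0, 0 and 1 in Aire -/-. The order of the Aire +/+ libraries was that of Lcn3, with 753 highest and 750 lowest, and the genotypes did not overlap. Its level was 18.9 ± 4.88 CPM against 0.204 ± 0.353 CPM, and Lcn11 fell by 6.09 on the log2 scale (SE 0.65, edgeR adjusted p = 2.62e-05), with a ratio of 97.0 (counting interval 17.2 to 3852). Without library 749, which held its only Aire -/- UMI, the fitted value was -8.49. Lcn4, the vomeronasal secretory protein 2 gene (chr2:26667674-26671282, minus strand), lies 887 kb beyond Lcn11. It had 3, 3 and 8 UMIs in Aire +/+ and 0 in every Aire -/- library. The counts were low in all 3 Aire +/+ libraries, and 0 UMIs allows up to 3. Its level of 1.55 ± 0.980 CPM was at least 2.65-fold lower in Aire -/-, taking the floor as 3 UMIs over the group. Such bounds, here and below, take the Aire +/+ count as exact, so they are not confidence limits. Lcn4 was below the count filter, and without a filter it did not pass (edgeR adjusted p = 0.0709).

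Obp2a encodes an odorant-binding protein of the mouse nasal mucosa and lies on the plus strand of chromosome 2 (chr2:25700043-25703326). It had 287, 279 and 351 UMIs in Aire +/+ and 0 in all 3 Aire -/- libraries. Every Aire +/+ library was far above the floor, and their highest and lowest CPM differed by 1.28-fold, the narrowest spread of the 10 genes (coefficient of variation 14.1%). The mean of 101 ± 14.3 CPM was at least 173-fold lower in Aire -/- (edgeR adjusted p = 2.72e-07). With TMM-scaled totals the bound was 151-fold.

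Obp1a and Obp1b are odorant-binding protein genes of mouse nasal glands, on the minus strand (chrX:78085505-78091374) and the plus strand (chrX:78186777-78192292). Obp1a had 14, 9 and 2 UMIs in Aire +/+ libraries 745, 750 and 753, and 0 in Aire -/-. Library 745 was highest and 753 lowest, whereas 753 was the highest library of most of the 10 genes. At 2.75 ± 1.97 CPM it was at least 4.73-fold lower in Aire -/-, below the count filter but past the threshold without one (edgeR adjusted p = 0.0293). Obp1b had 1, 2 and 6 UMIs in Aire +/+ and 0 in Aire -/-. Its highest library, 753, was the lowest of Obp1a. With 1.001 ± 0.893 CPM its bound was 1.70-fold, resting on few UMIs, and it did not pass without a filter (edgeR adjusted p = 0.166). The 3′ end of Obp1b is 98.3% identical to that of a gene model, Gm14743, which was not analysed here, so reads of the pair could be shared.

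The Mup genes form a dense family on mouse chromosome 4, and Mup4, Mup5, Mup6 and Mup20 spread over 2097 kb of it. Mup20 encodes darcin, the male urinary pheromone that attracts females, and Mup4 is known from nasal and lacrimal glands rather than from liver. Each of the 4 has 3′ ends of other Mup transcripts at 90% identity or more over at least 80 nt, from 4 such copies for Mup6 to 17 for Mup20, with the closest at 95.7% (for Mup5). How reads that match several genes were counted is not given in the sources used here, so the split of UMIs among Mup genes is uncertain.

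Mup4 (chr4:59956804-59960710, minus strand) had 53, 10 and 53 UMIs in Aire +/+ and 0 in Aire -/-. Libraries 745 and 753 were alike, and library 750 was low. In CPM of the library totals the counting interval was 1.69 to 6.48 in library 750, below 14.5 to 25.3 in 745 and 13.8 to 24.0 in 753. The level of 12.8 ± 8.25 CPM was at least 21.9-fold lower in Aire -/-. Mup4 was under the main count filter because of library 750, and it passed with the looser minimum of 3 counts (edgeR adjusted p = 0.0016).

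Mup6 (chr4:59964294-60007274, plus strand) had 34, 22 and 36 UMIs in Aire +/+ and 0, 1 and 0 in Aire -/-. Its lowest Aire +/+ library was 750 again, by a smaller margin than for Mup4, and the genotypes did not overlap. At 10.2 ± 2.55 CPM against 0.179 ± 0.311 CPM it fell by 5.20 on the log2 scale (SE 0.71, edgeR adjusted p = 0.000192), with a ratio of 52.2 (counting interval 9.13 to 2083). Without library 748, the source of that 1 UMI, the fitted value was -7.57. Mup20 (chr4:62050234-62054158, minus strand) had 8, 4 and 2 UMIs in Aire +/+ and 0 in Aire -/-, and was at least 2.65-fold lower from a level of 1.54 ± 0.994 CPM. Library 745 was its highest and 753 its lowest, as for Obp1a. For Mup20 this order is within counting error, with intervals of 1.26 to 5.76 and 0.0839 to 2.50 CPM of the library totals. Mup5 (chr4:61831319-61835233, minus strand) had 1, 0 and 8 UMIs in Aire +/+ and 0 in Aire -/-. Nearly all of it came from library 753, and with library 750 at 0 the genotypes overlapped. Without a filter neither passed (edgeR adjusted p = 0.0738 for Mup20 and 0.233 for Mup5).

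Liver markers were read beside the Mup genes, since hepatocytes are the main source of urinary proteins in mice. Of 7 listed, 6 were in the table, with a summed level of 193 to 260 CPM in Aire +/+ and 11.3 to 47.3 CPM in Aire -/-. Of 5 tested, 4 fell (Alb, Apoa1, Fgb and Ahsg; background 12.1%), and Ttr did not pass (edgeR adjusted p = 0.308). Alb, which encodes serum albumin, and Fgb, a fibrinogen chain, were at 0 in every Aire -/- library. The part of liver transcripts in the Mup counts was not tested.

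Within Aire +/+, 8 of the 10 genes were highest in library 753 and 2, Obp1a and Mup20, in library 745. Of the 8, Lcn4, Obp1b and Mup5 had only 8, 6 and 8 UMIs in library 753. Library 750 was the lowest for 6 of the 10. On library totals alone 745 was the highest for Mup4 as well, leaving 7 genes highest in 753, and 750 was the lowest for 7, with Lcn4 added. The spread of CPM between the highest and lowest library was 1.28-fold for Obp2a, 1.41-fold for Lcn3, 1.66-fold for Lcn11 and 1.66-fold for Mup6, and wider for Mup4 (5.39-fold), Obp1b (6.14-fold) and Obp1a (6.84-fold). The last pair rest on 25 UMIs or fewer. Library 753 is 1 of the pair of libraries with little Gapdh. Without 753 and 746 together the same 4 genes were tested and all 4 were lower in Aire -/-. In that fit 1177 of 12168 tested genes were lower, and the 4 passed its filter through their Aire +/+ counts.

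**Figure D2:**
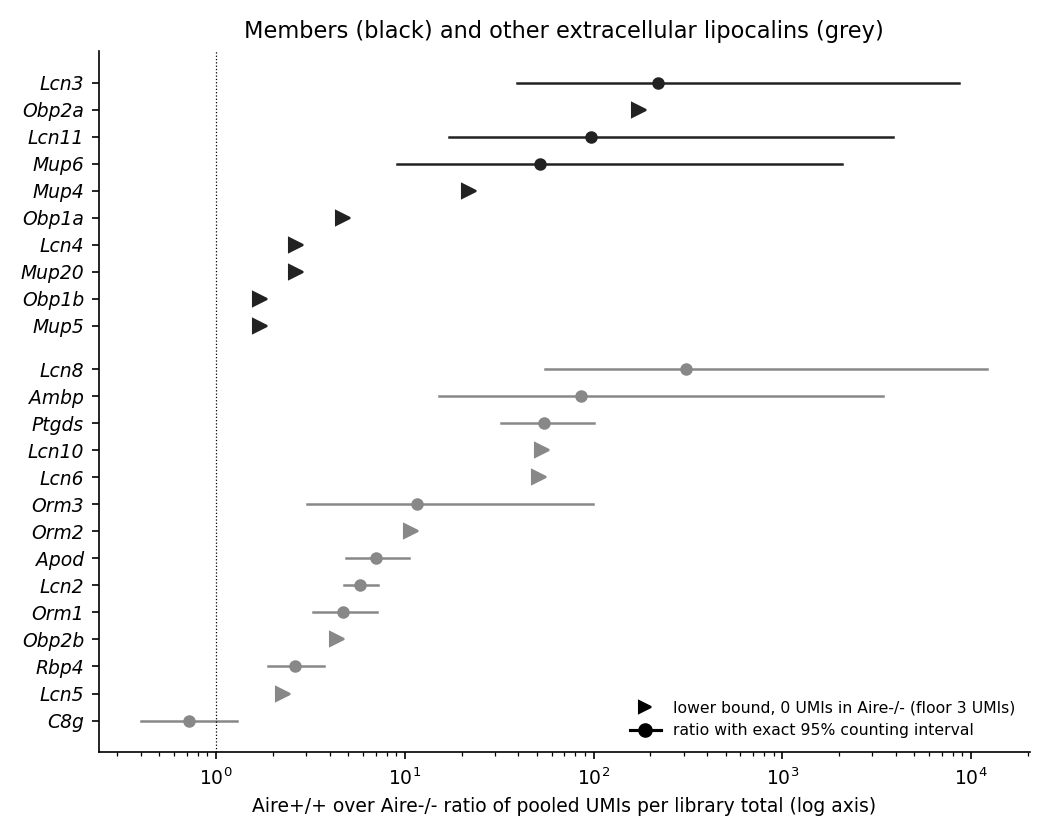
Ratio of Aire +/+ to Aire -/- for the 10 genes (black) and the 14 other secreted lipocalins (grey), on a log axis. It is taken from UMIs summed over 3 libraries per genotype and divided by the library totals. C8g, at 0.715, is below 1. Genes with 0 UMIs in Aire -/- are shown at bounds against 3 UMIs, with the Aire +/+ count taken as exact. These bounds run from 1.70-fold for Obp1b and Mup5 to 173-fold for Obp2a. Genes with 1 UMI or more in Aire -/- are ratios with their 95% counting intervals.

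Promoters were compared across the 3 chromosomes on which the genes lie. RefSeq promoters (GRCm38.p6, the build that mm10 names) were matched for 8 of the 10 genes, not for Mup5 and Mup20. The 250 bases before the start held TATAAA on either strand in 6 of 8, against 12.4% of 32851 promoters, and not in Lcn4 or Lcn11. On the gene's own strand it lay 20 to 40 bases before the RefSeq start in 4 of 8, namely 29 bases for Lcn3, 30 for Obp1a and 27 for both Mup4 and Mup6, against 1.91% of all promoters. In Obp2a and Obp1b it lay 61 bases before the RefSeq start, and 30 bases before the GENCODE start. The GENCODE start moves the others apart, except Obp1a, for which the starts are the same: in Lcn3 TATAAA lies 65 bases before it, and in Mup4 and Mup6 it lies after it, inside the GENCODE exon. CCAAT, on either strand, was in 4 of 8, against 33.8%. The 8 promoters held 0 to 3 CG dinucleotides each, where the median of all promoters was 6, and 37.8% of promoters held 3 or fewer. TATAAA is not particular to these genes. Among other secreted lipocalins it lay 28 to 33 bases before the RefSeq start in Lcn5, Obp2b, Orm2, Orm3 and 1 Rbp4 promoter. It was absent from the promoters of Ambp, Apod, C8g, Lcn10, Lcn2, Lcn6, Lcn8 and Ptgds. The promoters of Mup4 and Mup6 are near-copies, so the 8 are not independent. Both motifs were picked after the values were known, and a match describes letters, not a bound site. The last 100 bases before the start are shown for 4 odorant carriers, with TATAAA in capitals, ending at the GENCODE start for Obp2a and Obp1b and at the RefSeq start for Lcn3 and Obp1a. They lie at chr2:25699943-25700042 on the plus strand (Obp2a), chr2:25765433-25765532 on the plus strand (Lcn3), chrX:78091375-78091474 on the minus strand (Obp1a) and chrX:78186677-78186776 on the plus strand (Obp1b).
Obp2a: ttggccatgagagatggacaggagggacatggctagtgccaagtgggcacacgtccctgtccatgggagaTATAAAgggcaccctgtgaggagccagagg
Lcn3: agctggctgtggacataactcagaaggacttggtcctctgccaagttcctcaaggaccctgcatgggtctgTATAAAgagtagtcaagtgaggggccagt
Obp1a: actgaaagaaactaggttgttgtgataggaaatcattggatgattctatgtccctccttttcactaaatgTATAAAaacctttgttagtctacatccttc
Obp1b: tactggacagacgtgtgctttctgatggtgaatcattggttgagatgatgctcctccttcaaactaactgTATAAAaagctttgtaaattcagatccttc

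The other secreted lipocalins in the table were low in Aire -/- as well, with exceptions. Of 14, 11 were tested, 9 fell, none rose and 2 were not called (background 12.1% lower). In this and the other lists, genes with few or no UMIs in Aire -/- passed the count filter through Aire +/+ alone. Lcn6, Lcn10 and Orm2 are examples here, and Bpifb3 and Scgb3a1 in lists below. The shares that fell are therefore not free of that selection. Their log2 fold changes had a median of -5.54, or -3.43 where genes with 0 UMIs in Aire -/- were set at their bound, against -0.02 over all tested genes. Together the 14 held 4671 UMIs in Aire +/+ and 251 in Aire -/-.

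The epididymal lipocalins Lcn8, Lcn6 and Lcn10 were also nearly or wholly without UMIs in Aire -/-. Lcn8 had 163, 169 and 212 UMIs in Aire +/+ and 1, 0 and 0 in Aire -/-, and fell by 7.75 on the log2 scale (SE 0.49, edgeR adjusted p = 4.73e-07). Lcn10 had 80, 96 and 106 UMIs in Aire +/+ and 0 in Aire -/-, at least 53.3-fold lower (edgeR adjusted p = 6.04e-06). Lcn6 had 92, 70 and 109 UMIs against 0, at least 51.2-fold lower (edgeR adjusted p = 1.16e-05). None of these genes overlapped between genotypes.

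Ptgds, the lipocalin-type prostaglandin D synthase of brain coverings and male genital tract, kept a small count in Aire -/-. It had 386, 420 and 542 UMIs in Aire +/+ and 3, 2 and 9 in Aire -/-, and fell by 5.54 (SE 0.32, edgeR adjusted p = 2.72e-07). Lcn2, the siderophore-binding lipocalin of neutrophils and stressed epithelium, had 378, 381 and 307 UMIs against 30, 50 and 24. All its Aire -/- libraries held a clear signal, and Lcn2 fell by 2.32 on the log2 scale, from 118 ± 12.7 to 24.1 ± 8.41 CPM (SE 0.22, edgeR adjusted p = 1.02e-05). Apod, apolipoprotein D, went from 42.7 ± 5.45 to 6.72 ± 1.73 CPM, and fell by 2.62 (SE 0.25, edgeR adjusted p = 1.01e-05).

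Liver lipocalins were mixed. Ambp, the precursor of alpha-1-microglobulin, had 45, 60 and 46 UMIs in Aire +/+ and 0, 0 and 1 in Aire -/-, and fell by 5.91 (edgeR adjusted p = 2.58e-05). The acute-phase orosomucoids Orm1 and Orm2 fell too, Orm1 from 28.5 ± 7.04 to 6.42 ± 6.14 CPM (edgeR adjusted p = 0.00344) and Orm2 from 16, 24 and 17 UMIs to 0, at least 10.8-fold (edgeR adjusted p = 0.000699), although their 3′ ends are 97.7% identical and could share reads. Rbp4, the plasma retinol carrier, was not called, at 22.5 ± 14.1 against 11.5 ± 8.75 CPM (log2 difference -1.12, SE 0.57, edgeR adjusted p = 0.2). C8g, the complement component 8 gamma chain, was the only one with a higher mean in Aire -/-, at 3.20 ± 0.924 against 5.13 ± 0.244 CPM, and was not called (log2 difference 0.67, SE 0.40, edgeR adjusted p = 0.274).

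On chromosome 2 the lipocalins lie in a row, interleaved with unrelated genes, and from the start of Lcn8 to the end of Lcn11 they span 127 kb. Distances below are between gene starts and Obp2a's. Lcn8, Lcn6 and Lcn10 lie 46.9, 23.3 and 17.3 kb before Obp2a, Lcn3 and Lcn11 lie 65.5 and 77.0 kb after it, and their pooled log2 ratios of Aire -/- to Aire +/+ were -6.68, -5.68, -5.74, -6.19 and -5.01, those of Lcn6 and Lcn10 being bounds. Obp2b and Lcn5 of the same row, named here after their values were seen, had 10, 3 and 10 UMIs and 4, 2 and 6 UMIs in Aire +/+ and none in Aire -/-. Bmyc, a Myc-related gene that is no lipocalin, lies 6.70 kb from Obp2a, between it and Obp2b. It had 250, 380 and 347 UMIs in Aire +/+ and 98, 148 and 145 in Aire -/-, and at 108 ± 23.0 against 89.6 ± 10.5 CPM it was not called (log2 difference -0.28, SE 0.18, edgeR adjusted p = 0.309). A miss of the threshold does not show that Bmyc was unchanged.

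**Figure D3:**
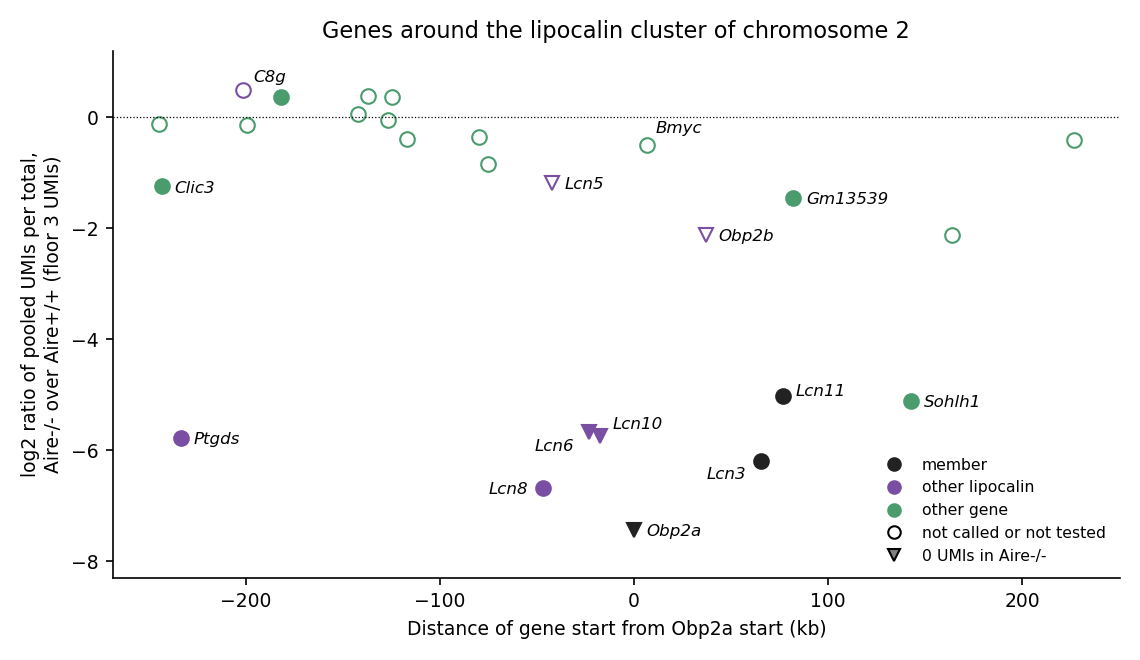
Pooled log2 ratio of Aire -/- to Aire +/+ (3 UMIs as floor) for genes of the table within 250 kb of Obp2a, against the distance of their starts from Obp2a's in kb, with lipocalins marked. Lcn8, Lcn6, Lcn10, Obp2a, Lcn3 and Lcn11 lie between -7.44 and -5.01, and Bmyc among them lies at -0.50. Lipocalins and other genes are not cleanly split, since the lipocalin C8g lies at 0.48 and Sohlh1, no lipocalin, at -5.11.

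Counted over all genes within 250 kb of any of the 10, other than lipocalins, 35 were in the table and 28 were tested. No gene so counted lies near Obp1a, Obp1b or Mup5. Of these 3 fell (10.7%, background 12.1%), 4 rose (14.3%, background 8.59%) and 21 were not called, with a median log2 fold change of 0.02. The 3 that fell were Sohlh1, a germ-cell transcription factor, Gm13539, a gene model, and Clic3, a chloride channel protein. Sohlh1 had 63, 67 and 53 UMIs in Aire +/+ and 0, 0 and 2 in Aire -/-, and fell by 5.32 (SE 0.57, edgeR adjusted p = 2.69e-05). Gm13539 went from 101 ± 9.29 to 44.7 ± 11.1 CPM (edgeR adjusted p = 0.000309), and Clic3 from 69.2 ± 1.56 to 34.7 ± 8.65 CPM (edgeR adjusted p = 0.00155). The 4 that rose were Traf2, Slc31a2, Rpl7a and Snx30, and 0 of the 4 were called with library totals alone, or without library 750 or 753. All 3 genes that fell lie within 250 kb of Obp2a, and of the 4 that rose only Traf2 does. The shares pooled over all neighbours therefore do not describe the surroundings of each carrier.

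Other carrier proteins of nose, airway and glands were counted from lists of the same kind. Of the BPI fold proteins of nose and mouth, lipid-binding proteins of mucus, 7 of 10 in the table were tested and 6 fell (background 12.1%). Bpifb3 had 75, 69 and 71 UMIs in Aire +/+ and 0 in Aire -/-, at least 40.6-fold lower (edgeR adjusted p = 9.47e-06). Bpifb1 had 74, 72 and 106 UMIs against 1, 0 and 2, and fell by 5.26 (edgeR adjusted p = 1.38e-05). Bpifa1, an abundant airway surface protein, was not called (edgeR adjusted p = 0.296), and its Aire -/- libraries ranged from 14 UMIs in library 749 to 255 in library 746.

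Of the secretoglobins, small secreted proteins, 3 of 6 in the table were tested and 3 fell (background 12.1%). The same list asked for exocrine-gland-secreting peptides, and no gene of that family was found in the table. The sizes differed widely. Scgb1a1, the club cell secretory protein, went from 54.9 ± 15.3 to 7.34 ± 3.70 CPM, and fell by 2.78 (edgeR adjusted p = 4.77e-05). Scgb1c1, a secretoglobin of olfactory mucosa, went from 50.9 ± 0.364 to 29.0 ± 3.78 CPM, and fell by 0.79 (edgeR adjusted p = 0.00399). Scgb3a1, an airway secretoglobin, had 33, 25 and 39 UMIs in Aire +/+ and 4, 0 and 0 in Aire -/-, with all 4 in library 746, and its call was lost with DESeq2's Wald test (adjusted p = 0.148).

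The intracellular lipid-binding proteins are barrel-shaped relatives of the lipocalins that stay inside the cell. Of 13 tested, 9 fell (background 12.1%), 2 rose (background 8.59%) and 2 were not called, with a median log2 fold change of -1.52. Crabp1, a retinoic acid carrier, had 428, 327 and 542 UMIs in Aire +/+ and 0, 2 and 1 in Aire -/-, and fell by 7.63 (SE 0.40, edgeR adjusted p = 1.54e-07). Fabp3, the heart-type fatty acid carrier, went from 56.6 ± 8.10 to 2.72 ± 1.27 CPM (edgeR adjusted p = 6.96e-07), and Rbp7, a retinol carrier, from 67.3 ± 16.1 to 1.76 ± 1.84 CPM (edgeR adjusted p = 2.87e-06). Fabp5, the epidermal-type fatty acid carrier, and Fabp4, the fat cell type, rose, from 1785 ± 263 to 2566 ± 204 CPM (edgeR adjusted p = 0.021) and from 350 ± 41.7 to 477 ± 32.8 CPM (edgeR adjusted p = 0.0316). Both calls were lost with library totals alone (edgeR adjusted p = 0.0749 and 0.187) and without library 745, 750 or 748.

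**Figure D4:**
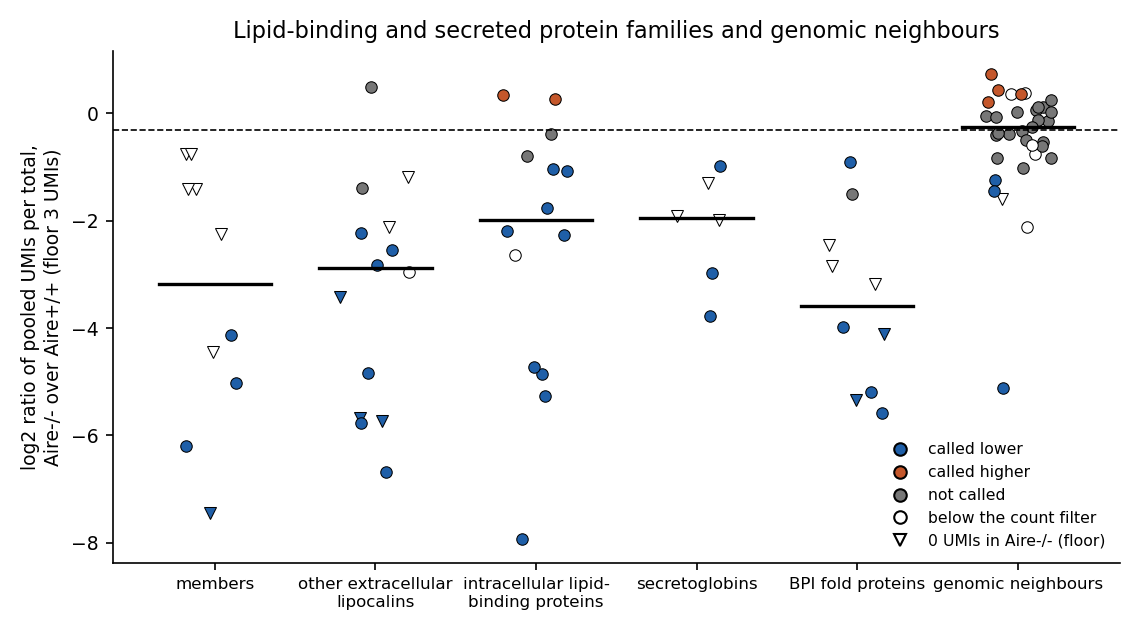
Pooled log2 ratio of Aire -/- to Aire +/+ (3 UMIs as floor) for each gene of the 10 carriers, the other secreted lipocalins, the intracellular lipid-binding proteins, the secretoglobins, the BPI fold proteins and the genomic neighbours, with the median of each list. The medians are -3.18, -2.89, -1.98, -1.95, -3.58 and -0.25, and that of the whole table is -0.31.

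As a description of the same kind across lists, 8 of the 10 carriers had a pooled log2 ratio of -1 or lower, against 22.9% of all genes in the table. Low counts limit that value, since a gene with 9 UMIs in Aire +/+ and 0 in Aire -/- can reach only a bound of 1.70-fold.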

How the data were processed

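Expression was measured by MARS-seq in 6 libraries, 3 of each Aire genotype. Tools named without a role in the submitters' processing notes are STAR 2.4.2a, HTSeq, DESeq2, cutadapt and bcl2fastq, with mm10 as the build. Not given in the sources used here are the annotation, the strand setting, the UMI handling and the counting of multiply matching reads. The values used are raw UMI counts per gene symbol, deposited by the authors in 1 table. Also deposited were normalized counts, a signal in which each library is divided by 1 size factor (checked on the table). These and the regularized log2 values by the authors were not used. The authors' deposited table also holds their own log2 fold changes, p-values and adjusted p-values, used here only for the counts credited to that table. Every log2 fold change and adjusted p printed comes from the tests below. Each gene of the table reaches 6 UMIs in at least 1 library.

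Quasi-likelihood F tests of edgeR 4.0.16 in R 4.3.3 were run on the counts with TMM scaling, a model of genotype alone, a low-count filter (filterByExpr, min.count 10) and Benjamini-Hochberg adjustment over the 11956 of 15643 genes that passed. The common dispersion was 0.0241. Pooled folds divide summed UMIs by summed library totals, with 3 UMIs per genotype as the floor and exact 95% Clopper-Pearson intervals. Intervals and floors cover counting error only, and bounds leave out the counting error of the Aire +/+ count. The floor was 0.984 to 1.01 CPM in Aire +/+ libraries and 1.61 to 3.08 CPM in Aire -/- libraries. Levels are means ± SD over 3 libraries and are not scaled by length, so they are not compared between genes.

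The 10 genes, the gene lists and the tests were chosen with earlier results of these data known. All members were named, with up to 3 genes of each other list by smallest p and those the results turn on. Alternatives were DESeq2 1.42.0 and its size factors, library totals alone, other count minimums, a floor of 1 UMI, leaving out each library, and, chosen after seeing the data, TMM-scaled totals for pooled folds. The test was checked on simulated counts, with 40 genes changed at each size. Decreases of 3, 2 and 1 on the log2 scale were recovered in 70%, 70% and 47.5% of genes. Increases of 1 and 2 were recovered in 75% and 100%. The count filter left 28 of the 40 genes with a decrease of 3, so it loses lowered genes. Of 156 calls, 11 were false. Positions and coding sequences come from the GENCODE annotation of mm10 and promoters from RefSeq. The last 300 nt of transcripts were compared with blastn 2.17.0, keeping matches of at least 80 nt and 90% identity. Similarity is given between coding sequences, as protein sequences were not used here.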

Additional observations from a re-analysis of the deposited data

How the results depend on the processing

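No paired analysis was possible because the library numbers differ between the genotypes and pair no libraries. The log2 fold changes of Lcn3, Lcn11, Obp2a and Mup6 were recomputed in 12 ways each, and all 48 kept their direction and an adjusted p under 0.05 (highest 4.78e-05, 0.00057, 5.73e-06 and 0.00325). Leaving out each library in turn, 4 to 5 members were tested, and all of these were lower and 0 higher. Over all genes, 1098 to 1899 were lower and 618 to 1156 higher, of 11725 to 13144 tested. The members tested passed the filter through their Aire +/+ counts. The same fits gave 9 to 10 other lipocalins lower, 7 to 11 lipid-binding proteins lower and 0 to 2 higher, and 3 secretoglobins lower. They also gave 5 to 8 BPI fold proteins lower, and 3 to 4 neighbours lower and 0 to 3 higher. Mup4 was tested, and lower, without 750, 746, 748 or 749. With library totals alone, 567 genes, 0 lipid-binding proteins and 0 neighbours were higher, and the median of all genes moved to -0.22. Without 753 and 746 together, 652 genes and 1 neighbour were higher. With no filter, 5 secretoglobins were lower. TMM-scaled totals gave pooled folds of 0.870 times those from library totals, and a floor of 1 UMI raised the bound of Obp2a to 520-fold. Depth limits Lcn4, Obp1b, Mup5 and Mup20 most: with 9 to 14 UMIs in Aire +/+, their bounds were 1.70-fold to 2.65-fold with the floor of 3 UMIs and 5.10-fold to 7.94-fold with a floor of 1 UMI. DESeq2's Wald test called 2 secretoglobins lower.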

Other observations

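Scgb1b27 and Scgb2b27, which encode alpha and beta chains of mouse androgen-binding protein and lie next to each other on chromosome 7, were below the count filter and were singled out after their values were seen. Scgb1b27 had 2, 12 and 6 UMIs in Aire +/+ libraries 745, 750 and 753, and Scgb2b27 had 1, 7 and 5. Both were highest in library 750, the lowest library for 6 of the 10 carriers, and both had 0 UMIs in every Aire -/- library. Among the BPI fold proteins Bpifa2, Bpifa5, Bpifa6 and Bpifb4 also had 0 UMIs in every Aire -/- library, with 21, 11 and 16 UMIs of Bpifa2, a salivary protein, in Aire +/+.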
